A study of Mus musculus with 6 samples.

Results

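The 10 transcription regulators Sox10, Pou3f1, Pou3f2, Egr2, Sox2, Nab1, Nab2, Zeb2, Tead1 and Yap1 were taken by symbol from the gene count table of the P3 sciatic nerve, and all 10 were found among its 54532 genes. One of them, Sox2, is known to hold Schwann cells in an immature state, and the other 9 are known to promote or accompany myelination. RNA-seq libraries were prepared from the sciatic nerves of 3 control (WT) mice and 3 Dok6 mutant (Dok6 KO) mice at postnatal day 3, with 1 library per mouse. All mice were on a C57BL/6 background. The Dok6 mutant line came from a floxed Dok6 allele (Dok6 fl/fl) deleted by EIIA-cre, which acts in the early embryo, so the loss was not restricted to neurons or Schwann cells. Sexes were not distinguished, and the controls were littermates, although which mice shared a litter is not stated. The comparison asks how the regulators of Schwann cell maturation differ between the genotypes when radial sorting of axons is under way.

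Schwann cells develop from the neural crest under the control of Sox10, which is needed at every stage of the lineage. In promyelinating cells Sox10 acts with the POU factors Pou3f1 and Pou3f2 to switch on Egr2 (Krox20), and Egr2 with its NAB cofactors drives the genes of peripheral myelin, while Sox2 opposes this step and is shut off as myelination begins. Yap1 and Tead1 are the coactivator and DNA-binding factor at the end of the Hippo pathway, and Zeb2 represses inhibitors of differentiation. Several of these factors also serve in other cells, since Sox10 marks oligodendrocytes and Sox2 marks astrocytes and neural progenitors.

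The 6 libraries held 17699904 to 18678170 counts, and levels are given as counts per M counts (CPM) scaled by TMM factors, at which 3 counts in a library equal 0.156 to 0.172 CPM. The targeted gene Dok6 was at 17.8, 11.9 and 17.5 CPM in controls 1 to 3 and at 7.26, 5.78 and 7.15 CPM in mutants 1 to 3 (log2 fold change -1.23, SE 0.20, adjusted p = 0.0118 by edgeR's quasi-likelihood test). The libraries labelled sciatic nerve carried many transcripts of the central nervous system. The summed level of 10 central neuron markers was 1650 to 2008 CPM in controls and 1397 to 1557 CPM in mutants, that of 6 astrocyte markers 1723 to 2255 and 1520 to 2847 CPM, and that of 10 oligodendrocyte lineage markers 410 to 908 and 463 to 1422 CPM. The sum of 9 Schwann cell markers was only 38.7 to 58.6 CPM in controls and 163 to 1378 CPM in mutants, and mutant 2 alone set the upper end. Sums of DRG neuron markers were 109 to 124 CPM in controls and 252 to 676 CPM in mutants, those of skeletal muscle 10.9 to 21.7 and 128 to 690 CPM, and those of fibroblasts 117 to 950 and 1839 to 2942 CPM. The oligodendrocyte marker Opalin was at no more than 1 count in any library, and each other marker passed 3 counts in some of the libraries. The DRG neuron marker Mrgprd was at 0, 2 and 1 counts in controls 1 to 3. The muscle markers Actc1, Tnni2, Ckm and Myl1 were at 0 to 2 counts in control 3. These marker levels moved with genotype or with single mice, and their part in the results on the regulators was not tested.

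Egr2 was the only regulator called between the genotypes, and it was higher in Dok6 mutant nerves. Of the 10 regulators, 9 had a log2 fold change above 0 and 1, Pou3f2, below 0. At an adjusted p under 0.05, 1 of 10 was higher and 0 of 10 were lower, against 8.62% of the 17099 genes tested called higher and 6.01% called lower. With the study's further requirement of a log2 fold change above 2, Egr2 remained, against 1.08% of genes tested. The edgeR count at an unadjusted p under 0.05 was 4 higher, against 18.0% of genes tested, and 0 lower, and DESeq2 called 3 higher and 0 lower and limma voom 0 in either direction. Leaving out control 1, control 2, control 3 or mutant 2 gave 0 regulators called higher, and leaving out mutant 3 gave 4 (Egr2, Nab2, Yap1 and Zeb2). Egr2, Nab2 and Yap1 were higher in every mutant than in every control, which held for 19.6% of the genes tested, while no regulator was lower in every mutant, which held for 18.7%. The share of regulators called and the share without overlap were therefore not read as a property of the set.

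**Figure D1:**
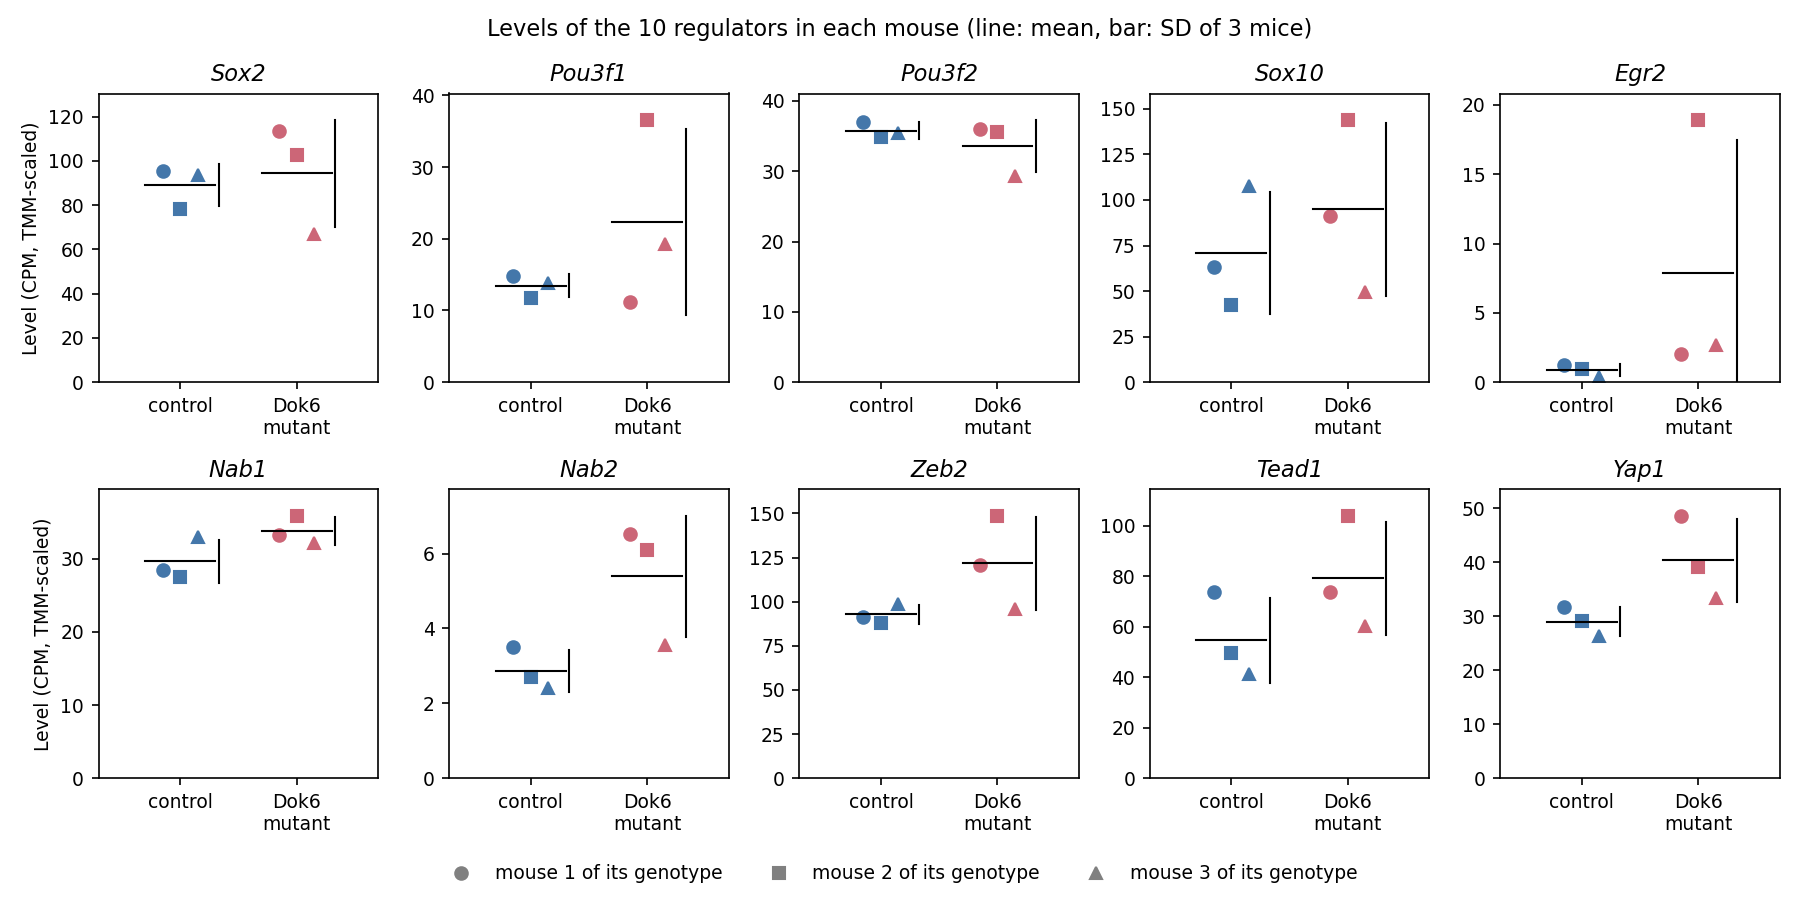
Levels of the 10 regulators in CPM (vertical axes start at 0) in the 3 control (blue) and 3 Dok6 mutant (red) mice, with the mouse number as symbol, the mean as a line and the SD of 3 mice as a bar cut at 0. Mutant 2 stands far above the other 5 mice for Egr2 at 18.9 CPM, and the genotypes do not overlap for Egr2, Nab2 and Yap1.

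Egr2 (ENSMUSG00000037868) encodes the zinc finger factor that commits promyelinating Schwann cells to make myelin. It lies on chromosome 10 at 67535475 to 67542188 of GRCm38, on the plus strand. Egr2 was at 1.21, 0.975 and 0.400 CPM in controls 1 to 3, which rested on 21, 17 and 7 counts. It was at 2.02, 18.9 and 2.70 CPM in mutants 1 to 3, from 39, 347 and 51 counts. All mutants were above all controls, and mutant 2 was 9.36-fold above mutant 1. This gave a log2 fold change of 3.18 (SE 0.90, 95% interval 1.13 to 5.23, adjusted p = 0.0483). Without mutant 2 the log2 fold change was 1.45 (adjusted p = 0.102). Egr2 also lost the call without control 1 (log2 fold change 3.51, adjusted p = 0.100), control 2 (3.28, 0.154) or control 3 (2.85, 0.120), where the fold change stayed near that of all 6 mice, and kept the call without mutant 1 or mutant 3. DESeq2 gave an adjusted p of 0.021 and limma voom 0.163. In bulk nerve, more cells of a type and more RNA per cell cannot be told apart.

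The mice fell in the same order for Egr2 as for the sum of the 9 Schwann cell markers. Of the 9 markers, edgeR called 6 higher in mutants (DESeq2 3, with no p for Cldn19, Pmp22 and Prx, and limma voom 2) and 0 lower, against 8.62% and 6.01% of all genes tested. At an unadjusted p under 0.05 edgeR gave 8 higher and 0 lower, and neither other tool called one lower. Their median log2 fold change was 3.89. A rise of this size was not particular to Schwann cell markers. The median was 5.02 for skeletal muscle, 3.95 for DRG neuron and 2.47 for fibroblast markers. In the remaining marker lists it ranged from -0.34 (central neuron) to 0.75 (endothelium). Egr2 equalled 2.05%, 2.40% and 1.03% of the summed CPM of the 9 Schwann cell markers in controls 1 to 3 and 1.24%, 1.37% and 1.44% in mutants 1 to 3. Relative to these markers, all mutants lay within the range of the controls. Of the 9 markers, 5 (Prx, Pmp22, Ncmap, Dhh and Cldn19) are themselves known targets of Sox10 and Egr2, and Pmp22 gave 783 of the 1378 CPM in mutant 2, so the sum is not independent of Egr2. The order of the mice and these percentages depend on which markers are summed.

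Sequences are shown for Egr2 because it was the regulator called, and for Sox2 because it is the regulator of immaturity. Of the 10 regulators, 7 were matched to a promoter entry in the RefSeq-derived table used here, on GRCm38.p6, and Sox10, Pou3f1 and Tead1 were not matched. Each window holds the 250 bases before an annotated start, and capitals mark the POU octamer (ATGCAAAT) in Egr2 and the SOX core (ACAAAG or ACAATG) in Sox2, searched on both strands. The Egr2 window, chr10:67537619-67537868 on the plus strand, is 1 of 5 for this gene. The Sox2 window is chr3:34649745-34649994 on the plus strand.
Egr2: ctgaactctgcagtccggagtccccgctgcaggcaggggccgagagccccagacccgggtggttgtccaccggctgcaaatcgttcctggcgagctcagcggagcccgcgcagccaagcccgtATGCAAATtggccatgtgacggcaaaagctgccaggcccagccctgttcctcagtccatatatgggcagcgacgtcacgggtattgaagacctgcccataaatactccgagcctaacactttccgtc
Sox2: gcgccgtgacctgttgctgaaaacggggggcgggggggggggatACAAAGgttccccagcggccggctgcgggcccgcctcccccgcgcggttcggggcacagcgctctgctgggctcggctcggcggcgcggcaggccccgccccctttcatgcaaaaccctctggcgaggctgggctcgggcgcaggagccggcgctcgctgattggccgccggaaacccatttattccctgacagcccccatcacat
The octamer began 127 bases before this Egr2 start. It was present in 3 of the 5 Egr2 windows, which overlap and share this 1 octamer, and absent from the other 2, and 1.60% of the 32851 promoter windows of the same length held one. The SOX core began 206 bases before the RefSeq start that ends this window, which lies upstream of the GENCODE start of Sox2 given with its levels, and 25.2% of windows held one. The Nab1 window held 3 matches to the EGR site (GCGTGGGCG or GCGGGGGCG), which was present in 3.06% of windows, and the Nab2 and Egr2 windows held none. The TEAD core (GGAATG) was found in the windows of Nab1 and Yap1, in 1 of 4 windows of Zeb2 and in 1 of 5 of Egr2, against 12.6% of all windows, and the ZEB E-box (CACCTG) was found in none of the regulators' windows, against 17.2%. These matches describe letters in a window and were not tested as binding sites.

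The study listed 2 primer pairs for quantitative PCR under names of Egr2, and the pair under the older name Krox20 could be placed on the gene.
Krox20-F: gccaaggccgtagacaaaatc
Krox20-R: ccactccgttcatctggtca
The forward primer matched bases 67538230 to 67538250 of chromosome 10, and the reverse primer the opposite strand at 67538364 to 67538383, with no mismatch. Both sites fall in coding sequence of the first exon of the transcript ENSMUST00000048289.13 in GENCODE M21, and the product spans 154 bases. A second primer pair, named EGR2 in the study, had no exact match in any of the 7 annotated Egr2 transcripts on either strand. The Krox20 forward primer matched 1 of the 7 annotated Egr2 transcripts and the reverse primer 5, whereas the counts here sum over the exons of all transcripts.

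Sox10 (ENSMUSG00000033006), the SRY-box factor of the whole Schwann lineage, varied more among mice of a genotype than between genotypes. It lies on chromosome 15 at 79154908 to 79165240 on the minus strand. Sox10 was at 63.4, 42.2 and 108 CPM in controls 1 to 3 and at 91.3, 144 and 49.4 CPM in mutants 1 to 3. Control 3 was above mutants 1 and 3, and the genotypes overlapped. Its fold change was 0.42 on the log2 scale (SE 0.41, 95% interval -0.51 to 1.34, adjusted p = 0.504). Without mutant 2 the log2 fold change was -0.014. Among the 10 oligodendrocyte lineage markers, 9 were tested and none was called by edgeR, DESeq2 or limma voom, while 1 was higher and 0 lower at an unadjusted p under 0.05 by edgeR. Sox10 equalled 10.3% to 12.3% of the summed CPM of these markers in controls and 9.26% to 10.7% in mutants. Over the 6 mice Sox10 itself had a 3.41-fold range. The percentages depend on which markers are summed, and the cause of the spread of Sox10 was not tested.

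**Figure D2:**
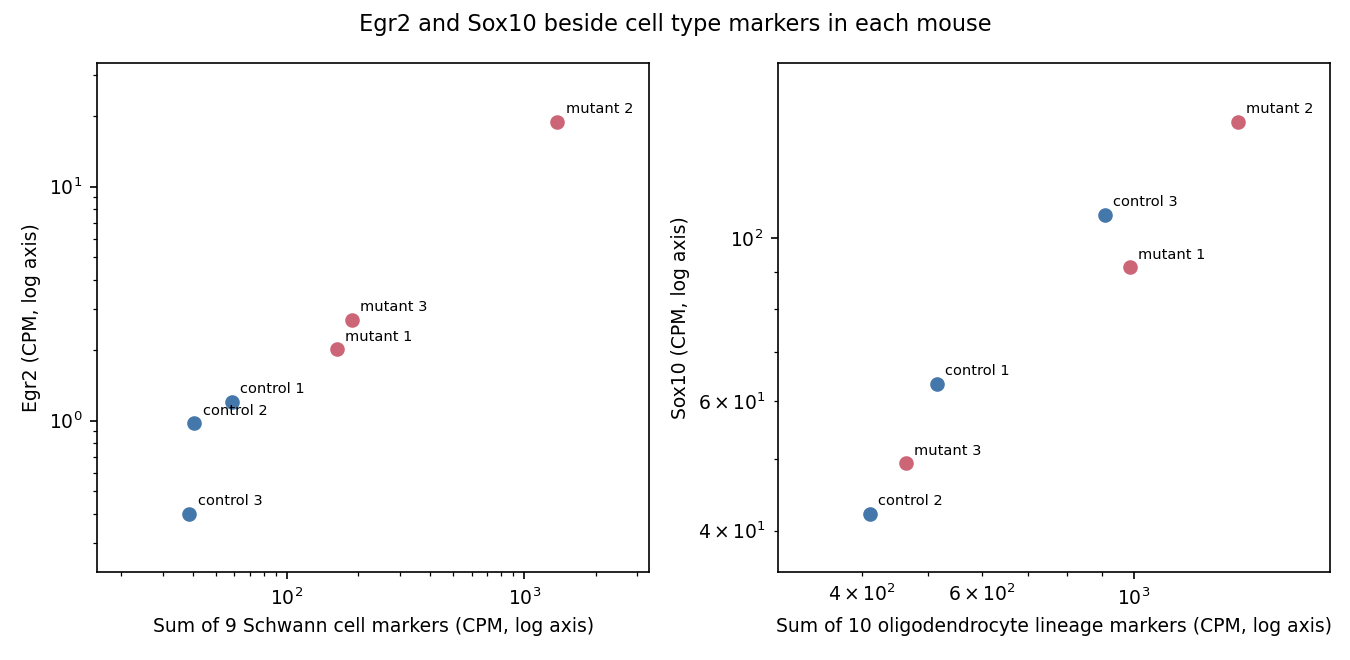
Egr2 against the sum of 9 Schwann cell markers (left) and Sox10 against the sum of 10 oligodendrocyte lineage markers (right), in CPM on log axes, for each control (blue) and Dok6 mutant (red) mouse. Mutant 2 is highest on all axes, and control 3 lies second highest for Sox10 but lowest for Egr2.

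Pou3f1 (ENSMUSG00000090125; also Oct6 or SCIP), the POU factor that times the onset of myelination, lies on chromosome 4 at 124656807 to 124660655 on the plus strand. Pou3f1 was at 14.8, 11.8 and 13.8 CPM in controls 1 to 3 and at 11.2, 36.6 and 19.3 CPM in mutants 1 to 3. Mutant 1 was below all controls, and mutant 2 was 3.27-fold above mutant 1. The log2 fold change was 0.73 (SE 0.36, 95% interval -0.095 to 1.56, adjusted p = 0.195), and it was 0.18 without mutant 2. The antisense gene Gm2164 overlaps 330 exonic bases of Pou3f1 and was at 0.0519 to 0.218 CPM. Pou3f2 (ENSMUSG00000095139; also Brn2), a close relative that can share the role of Pou3f1, lies on the same chromosome at 22482780 to 22488366 on the minus strand. Pou3f2 was at 37.1, 34.8 and 35.4 CPM in controls 1 to 3 and at 36.0, 35.5 and 29.4 CPM in mutants 1 to 3. Its levels were the most even of the 10 in controls, and mutant 3 was the lowest mouse. For Pou3f2 the log2 fold change was -0.089 (SE 0.11, 95% interval -0.33 to 0.15, adjusted p = 0.592).

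Nab1 and Nab2 encode the corepressors that bind EGR proteins and are needed together with Egr2 for myelination. Nab2 (ENSMUSG00000025402, chromosome 10, 127660918 to 127668568, minus strand) was at 3.50, 2.69 and 2.40 CPM in controls 1 to 3 and at 6.54, 6.11 and 3.55 CPM in mutants 1 to 3. The mutants did not overlap the controls, although mutant 3 and control 1 differed by little. Nab2 had a log2 fold change of 0.91 (SE 0.28, 95% interval 0.27 to 1.56) but missed the threshold with an adjusted p of 0.0619. DESeq2 called Nab2 (adjusted p = 0.034), and edgeR did so without a filter on low counts (0.0389) or without mutant 3 (0.0234). Exons of Nab2 overlap 40 bases of Stat6 and 151 bases of Nemp1 on the opposite strand, and both neighbours were called higher (log2 fold change 2.11, adjusted p = 0.00433 and 1.15, adjusted p = 0.021). The antisense gene Gm16229, which covers 35.7% of the exonic bases of Nab2, was listed at 0 in every library. Nab1 (ENSMUSG00000002881, chromosome 1, 52457294 to 52500679, minus strand) was at 28.4, 27.6 and 32.9 CPM in controls 1 to 3 and at 33.3, 35.9 and 32.1 CPM in mutants 1 to 3. Control 3 lay between the mutants, so the genotypes overlapped. Nab1 had a log2 fold change of 0.19 (SE 0.11, 95% interval -0.052 to 0.43, adjusted p = 0.246). A stretch of 382 bases of Nab1 transcripts was 97.4% identical to Cog7, where reads could be counted for either gene.

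Sox2 (ENSMUSG00000074637), which keeps Schwann cells immature and also marks neural progenitors and astrocytes, did not differ detectably between genotypes. It lies on chromosome 3 at 34650405 to 34652461 on the plus strand. Sox2 was at 95.3, 78.3 and 93.7 CPM in controls 1 to 3 and at 113, 103 and 67.1 CPM in mutants 1 to 3. The mutants held both the 2 highest mice and the lowest. The log2 fold change was 0.084 (SE 0.18, 95% interval -0.32 to 0.49, adjusted p = 0.774), and it was -0.0031 without control 2 and -0.070 without mutant 1. Sox2 equalled 4.15% to 4.87% of the summed CPM of the 6 astrocyte markers in controls and 3.64% to 4.42% in mutants. Of these 6 markers, none was called by edgeR, DESeq2 or limma voom, and 0 had an unadjusted p under 0.05 by edgeR. The transcript Sox2ot, whose introns hold Sox2 on the same strand, was at 9.87, 9.69 and 17.8 CPM in controls 1 to 3 and at 19.0, 20.6 and 11.1 CPM in mutants 1 to 3 (log2 fold change 0.44, adjusted p = 0.334), with overlap.

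Zeb2, Tead1 and Yap1 all had higher means in mutants, and none passed the threshold. Zeb2 (ENSMUSG00000026872, chromosome 2, 44983632 to 45117395, minus strand), a zinc finger repressor needed for Schwann cells to leave the immature state, was at 91.5, 87.9 and 98.9 CPM in controls 1 to 3 and at 121, 149 and 95.9 CPM in mutants 1 to 3. Mutant 3 fell within the controls. The log2 fold change was 0.39 (SE 0.14, 95% interval 0.062 to 0.72, adjusted p = 0.098), and without mutant 3 Zeb2 was called (log2 fold change 0.54, adjusted p = 0.0206). Without mutant 2 the log2 fold change of Zeb2 was 0.22 (adjusted p = 0.267). Zeb2os, an antisense transcript that overlaps 653 exonic bases of Zeb2, was at 0.287, 0.344 and 0.0572 CPM in controls 1 to 3 and at 0.622, 1.42 and 0.689 CPM in mutants 1 to 3 (adjusted p = 0.0635), from 1 to 26 counts a library. Mir5129 and Gm27761, which overlap Zeb2 exons by 5 and 4 bases, were listed at 0 in every library. The sample labels name the NEBNext Ultra kit and the study's methods its Directional version, which keeps strand. Whether strand was used in counting is not given in the sources used here, and without it reads of overlapping genes cannot be told apart.

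Yap1 (ENSMUSG00000053110, chromosome 9, 7931999 to 8004596, minus strand), the coactivator restrained by Hippo kinases, was at 31.6, 29.1 and 26.2 CPM in controls 1 to 3 and at 48.6, 39.1 and 33.3 CPM in mutants 1 to 3. All mutants were above all controls. The overlapping Gm20416, which shares 116 bases of the opposite strand, reached at most 0.0573 CPM. The log2 fold change was 0.48 (SE 0.15, 95% interval 0.14 to 0.81, adjusted p = 0.0599), and DESeq2 gave an adjusted p of 0.0275. Without mutant 3 edgeR called it (adjusted p = 0.0269). Tead1 (ENSMUSG00000055320, chromosome 7, 112679318 to 112906807, plus strand), the DNA-binding partner of Yap1, was at 73.6, 49.4 and 41.2 CPM in controls 1 to 3 and at 73.6, 104 and 60.3 CPM in mutants 1 to 3. Control 1 and mutant 1 had the same level to 3 digits. Tead1 had a log2 fold change of 0.53 (SE 0.24, 95% interval -0.023 to 1.09, adjusted p = 0.163). It was 0.29 without mutant 2 and 0.81 without control 1.

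**Figure D3:**
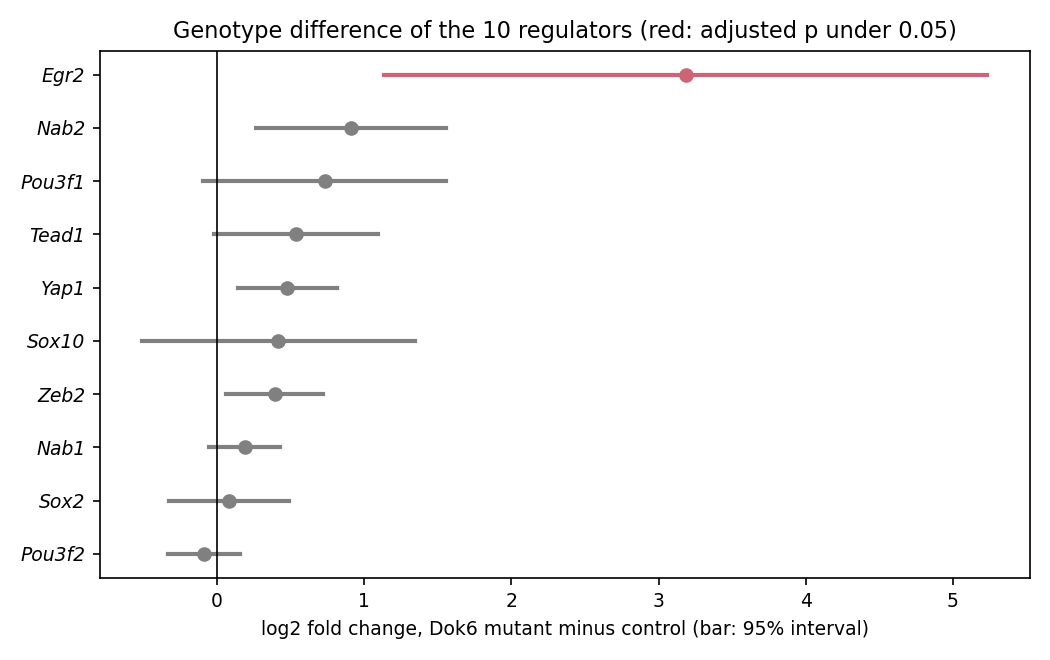
Log2 fold change of each regulator, Dok6 mutant minus control, with its 95% interval from edgeR's quasi-likelihood fit, on a horizontal log2 axis. Egr2 (red, 3.18) is the one regulator called, and the intervals of Nab2, Yap1 and Zeb2 also lie above 0 without passing the adjusted threshold.

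The regulators did not vary alike among the mice. Mutant 2 was the highest of the 6 mice for 6 regulators (Sox10, Pou3f1, Egr2, Nab1, Zeb2 and Tead1), whereas it was highest for 18.7% of genes tested. Mutant 1 was highest for Sox2, Nab2 and Yap1, and control 1 for Pou3f2. Mutant 3 was the lowest mutant for 8 regulators, against 36.4% of genes tested, the exceptions being Egr2 and Pou3f1, for which mutant 1 was lowest.

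Compared per kilobase of gene length, Sox2 was the most abundant regulator and Egr2 the least in the control libraries. These libraries held 1723 to 2255 CPM of astrocyte markers and 38.7 to 58.6 CPM of Schwann cell markers. The order was therefore not read as that of Schwann cells. The mean level was 43.3 ± 4.55 CPM per kilobase for Sox2 (SD, n = 3) and 23.3 ± 11.0 for Sox10, and the lowest Sox2 mouse at 38.1 was above the highest Sox10 mouse at 35.3. Nab1 followed at 7.23 ± 0.705 and Pou3f2 at 6.40 ± 0.210 CPM per kilobase, each separate from its neighbours in this order. Zeb2 (4.65 ± 0.282), Tead1 (4.03 ± 1.24), Pou3f1 (3.50 ± 0.405) and Yap1 (3.13 ± 0.290) came next, and neighbours within this group overlapped. Nab2 stood at 0.974 ± 0.193 and Egr2 at 0.253 ± 0.122 CPM per kilobase, and neither overlapped the regulator above it. In mutants Sox2 (45.9 ± 11.8), Sox10 (31.1 ± 15.5) and Nab1 (8.24 ± 0.471) kept the first places, and Egr2 (2.32 ± 2.82) exceeded Nab2 (1.84 ± 0.549) in the mean, through mutant 2 at 5.57 CPM per kilobase for Egr2.

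Ratios of counts within a library, which do not depend on scaling, set regulators of successive steps against each other. They are described without a test, with 0.5 added to each count. The log2 ratio of Sox10 to Sox2, the lineage factor against the factor of immaturity, was -0.59, -0.89 and 0.20 in controls 1 to 3 and -0.31, 0.49 and -0.44 in mutants 1 to 3, so the genotypes overlapped. Egr2 to Sox10 averaged -6.35 ± 1.41 (SD, n = 3) in controls and -4.19 ± 1.28 in mutants, and mutant 1 at -5.48 lay among the controls. Pou3f1 to Egr2, the inducer against its product, was 3.59, 3.55 and 5.01 in controls 1 to 3 and 2.45, 0.95 and 2.82 in mutants 1 to 3. This was the one ratio of 5 in which the genotypes did not overlap. Egr2 alone did not overlap either, so the ratio adds no separate result. Of the genes tested, 19.6% were higher and 18.7% lower in every mutant than in every control, and no such share was worked out for ratios. Nab2 to Nab1 averaged -3.37 ± 0.38 and -2.69 ± 0.43, with mutant 3 among the controls. Yap1 to Tead1 averaged -0.88 ± 0.30 and -0.95 ± 0.42.

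**Figure D4:**
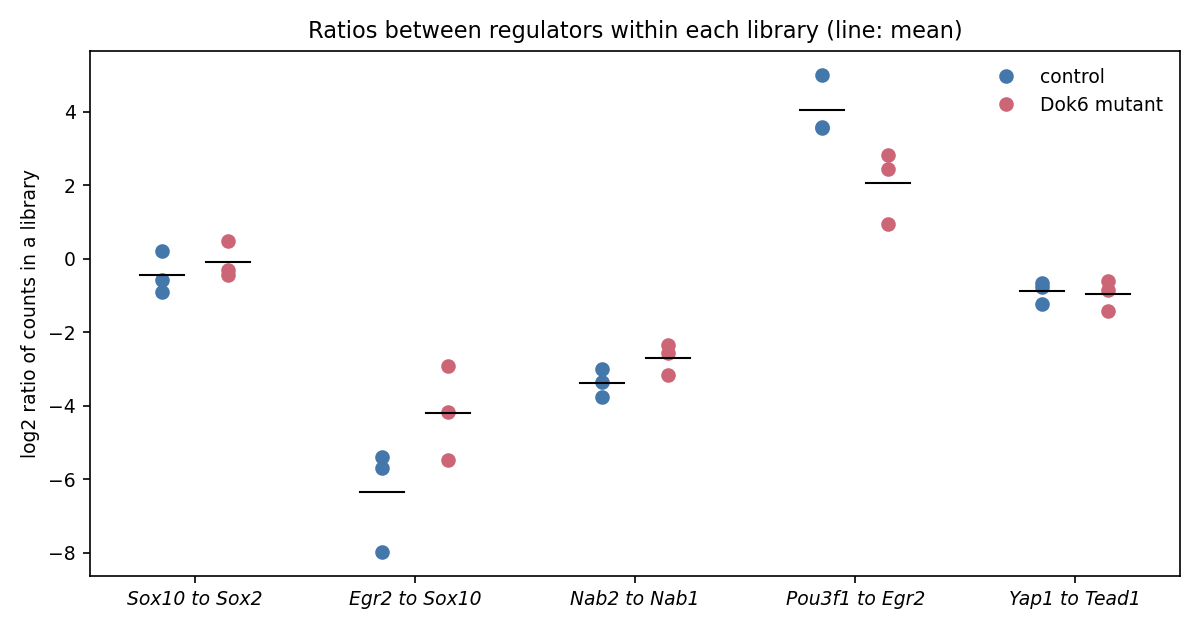
Log2 ratio of the counts of paired regulators within each library, for control (blue) and Dok6 mutant (red) mice, with the mean as a line. Of the ratios shown, only Pou3f1 to Egr2 separates the genotypes, as Egr2 alone does, with controls at 3.55 to 5.01 and mutants at 0.95 to 2.82.

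Genes known as targets of Sox10 and Egr2 had a larger median fold change than the regulators themselves, and 5 of them are also in the Schwann cell marker list. Of 14 targets, edgeR called 5 higher and 0 lower, against 8.62% and 6.01% of all genes tested. At an unadjusted p under 0.05 edgeR gave 8 higher and 0 lower, and DESeq2 and limma voom called 0 lower. The median log2 fold change of the targets was 2.16, beside 0.45 for the 10 regulators and 0.013 for all genes tested. The 5 were the junction protein Cldn19 (log2 fold change 4.50, SE 1.21, adjusted p = 0.0416), periaxin (Prx, 4.27), the myelin protein Pmp22 (4.06), the Schwann cell morphogen Dhh (3.89) and the neuregulin receptor Erbb3 (3.30). DESeq2 gave no p for Cldn19, Prx and Pmp22 and called Dhh, Erbb3, Drp2 and Mal, and limma voom called only Dhh. Pmp22 was at 24.7, 17.5 and 14.6 CPM in controls 1 to 3 and at 89.3, 783 and 76.2 CPM in mutants 1 to 3. Cldn19 was at 6.54, 101 and 4.77 CPM and Prx at 28.2, 330 and 18.7 CPM in mutants 1 to 3, beside control means of 1.64 and 6.52 CPM. The size of the fold change of Pmp22, Cldn19 and Prx therefore leaned on mutant 2. Of the targets that oligodendrocytes also express, Mag, Mbp, Fa2h, Pllp and Gjb1 overlapped between genotypes, with control 3 above mutant 3 for each, whereas Mal did not overlap, at 7.32 to 10.7 CPM in controls and 16.3 to 135 CPM in mutants. Mbp was at 175, 108 and 1013 CPM in controls 1 to 3 and at 750, 2129 and 119 CPM in mutants 1 to 3, and the 6 mice fell in the same order as for Sox10. Mag, Mbp, Fa2h, Pllp, Gjb1, Drp2 and Mal were named after their values were seen.

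**Figure D5:**
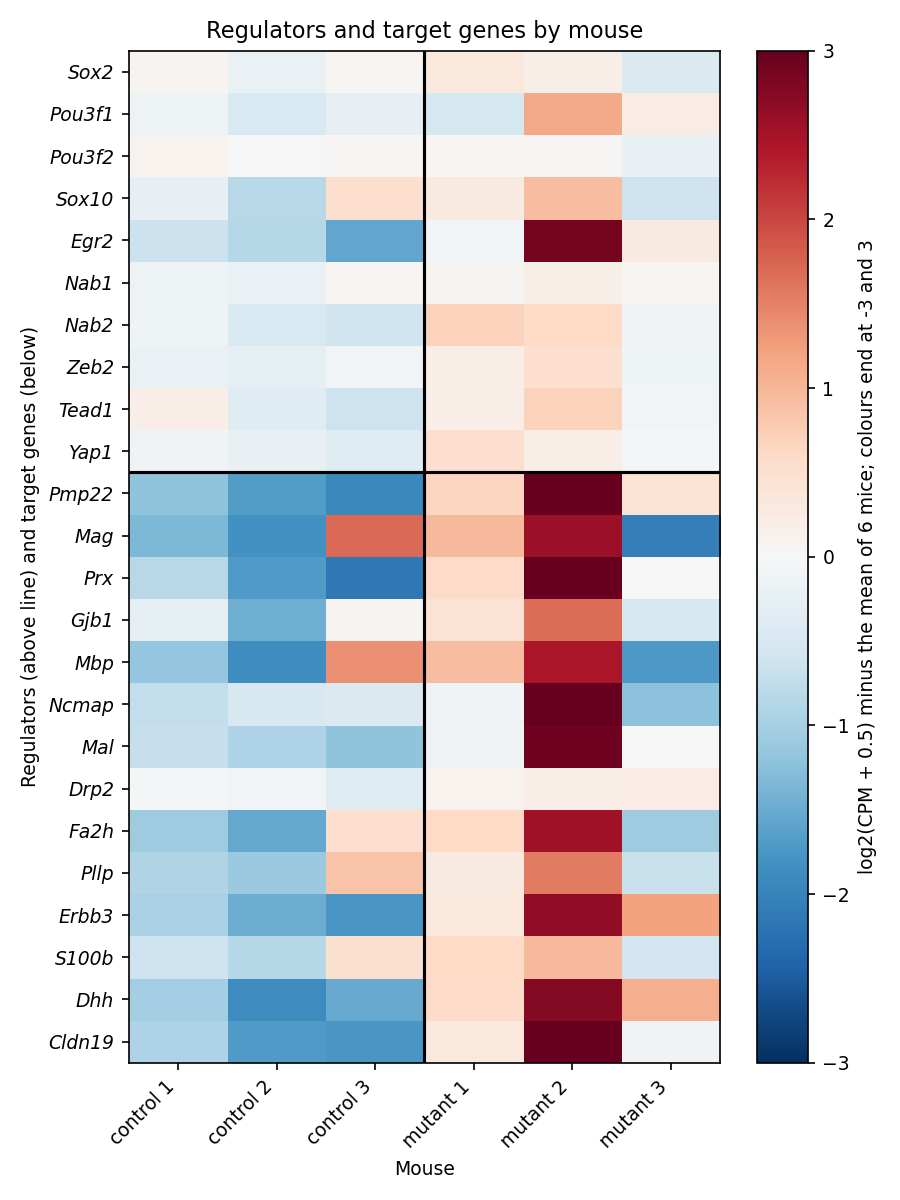
Heat map of log2(CPM + 0.5) for each mouse minus the mean of the 6 mice, for the 10 regulators (above the line) and 14 target genes (below), with colours ending at -3 and 3. Mutant 2 is deep red for Egr2 and for Pmp22, Prx, Ncmap, Mal and Cldn19, while Mag and Mbp are also red in control 3 and blue in mutant 3.

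Among 12 other regulators of immaturity, edgeR called 2 higher and 0 lower, against 8.62% and 6.01% of all genes tested, with 2 higher and 1 lower at an unadjusted p under 0.05 and 0 lower by DESeq2 and limma voom. The median log2 fold change was 0.051. The 2 were members of the Egr2 family, both early response genes that are also induced in active neurons. Egr1 was at 10.6 to 11.2 CPM in controls and 26.6 to 45.6 CPM in mutants (log2 fold change 1.71, SE 0.19, adjusted p = 0.00588), and Egr3 was at 0.745 to 1.20 and 1.40 to 5.78 CPM (1.85, SE 0.53, adjusted p = 0.0493). Egr1 passed in all 6 fits that left out 1 library, and Egr3 only without mutant 1.

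Of 12 other regulators grouped here as promoting myelination, 5 were called higher and 1 lower, against 8.62% and 6.01% of all genes tested. Their median log2 fold change was 0.23. The role of each gene in these nerves was not tested. The histone deacetylase Hdac1 was at 22.0 to 23.1 CPM in controls and 36.0 to 43.1 CPM in mutants (log2 fold change 0.77, SE 0.11, adjusted p = 0.00787). Nfatc4, a calcineurin-dependent factor that acts with Sox10, had a log2 fold change of 1.11 (adjusted p = 0.0482), Srebf2, which drives cholesterol synthesis, 0.41, the chromatin remodeller Ep400 0.36, and Yy1 0.28 (adjusted p = 0.0245 to 0.0482 for these 4). Hdac3 fell by 0.33 on the log2 scale (adjusted p = 0.0316), and this fall was not read as less promotion of myelination. Without control 2 none of the 6 was called, and without mutant 1 only Hdac1 was. Without control 3 the calls were Hdac1 and Srebf2, and without mutant 2 they were Hdac1 and Nfatc4.

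In the Hippo pathway upstream and beside Yap1 and Tead1, 18 of 19 genes were tested, 2 were called higher and 2 lower, against 8.62% and 6.01% of all genes tested, and the median log2 fold change was 0.16. The count in the higher direction is near that share, so the calls below describe single genes. Tead2, a relative of Tead1, was at 9.87 to 10.5 CPM in controls and 17.8 to 20.8 CPM in mutants (log2 fold change 0.94, SE 0.13, adjusted p = 0.00735). The kinase gene Lats1 fell by 0.38 on the log2 scale (adjusted p = 0.0211), and Mob1b, which encodes an activator of that kinase, fell by 0.71 (adjusted p = 0.0125). The remaining call was Tead4, with a mean under 1 CPM. Tead3 was at 3.66 to 7.23 CPM in controls and 8.96 to 11.0 CPM in mutants. It missed the edgeR threshold (log2 fold change 0.83, adjusted p = 0.0522), while DESeq2 and limma voom called it. The YAP-responsive genes Cyr61 and Ctgf were at 2.57 to 10.1 and 7.49 to 38.2 CPM in controls and at 12.9 to 14.6 and 13.4 to 17.7 CPM in mutants, and neither was called (adjusted p = 0.148 and 0.295), although Ctgf was called without control 3, its lowest mouse. Tead3, Tead4, Cyr61 and Ctgf were chosen after their values were seen. Without control 2 none of the pathway was called, and without mutant 1 the calls were Mob1b and Tead2.

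Of 8 relatives of the regulators in the SOX, POU, EGR and ZEB families, 7 were tested, edgeR called 1 lower and 0 higher, against 6.01% and 8.62% of all genes tested, with 1 lower and 1 higher at an unadjusted p under 0.05, 1 higher by DESeq2 (Zeb1) and 0 by limma voom, and the median log2 fold change was -0.18. Pou3f3, a POU factor of central neurons, was at 124 to 150 CPM in controls and 97.9 to 101 CPM in mutants (log2 fold change -0.42, SE 0.087, adjusted p = 0.0205). It was not called without control 2, mutant 1 or mutant 2, and without mutant 3 Zeb1 was called as well. In the edgeR fit of all 6 libraries no other relative passed. In the same fits the counts of called target genes were 0 without control 2, 2 without control 1 or control 3 (Dhh and Erbb3 in both) and 6 or 7 without any 1 mutant.

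The profile over the 6 mice placed the regulators beside different genes. Likeness was the root mean square difference of centred log2(CPM + 0.5) over 6 libraries, among 15692 genes with a mean of at least 1 CPM. The closest genes to Egr2 were the myelin proteolipid gene Mal (0.186), the Schwann cell trafficking gene Sh3tc2 (0.318), Art3 (0.331), Egfl8 (0.340) and Slc36a2 (0.347), where the spread of Egr2 itself was 1.41. The closest to Sox10 were Serpina3n (0.119), Bmp4 (0.122), Srpk3 (0.127), Rassf10 (0.133) and Sirt2 (0.136), with a spread of 0.622. The closest to Sox2 were Mpp5 (0.0474), Dsc2 (0.0547), Slc25a18 (0.0583), Slc6a11, a GABA transporter of astrocytes (0.0606), and Hoxd8 (0.0665), with a spread of 0.249. For Pou3f1 they were Ctnnal1 (0.139), the slow muscle and heart troponin gene Tnnc1 (0.152), Krt87 (0.174), Rarres1 (0.181) and Chad (0.202), with a spread of 0.564.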

How the data were processed

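Total RNA from nerves of 6 mice, 3 per genotype, was sequenced as 1 library per mouse, so p-values measure the spread between mice. The authors deposited raw counts of reads per gene, with no normalization. The submitters' notes name the build mm10, and the aligner and counting tool are not given in the sources used here. The members and gene lists were chosen with earlier results of these data known, and the ratios of regulators to summed markers after the values were seen. Some genes of the marker and target lists are not reported here, and counts and sums leave them out.

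Tests used edgeR 4.0.16 (R 4.3.3). After filterByExpr (17099 of 54532 genes) and TMM scaling, all 6 libraries entered one quasi-likelihood fit on genotype, and p-values were adjusted by Benjamini-Hochberg over all 17099. A gene was called at an adjusted p under 0.05. Intervals of log2 fold changes are 95% intervals of the fit. The common biological coefficient of variation was 16.6%. The floor of 3 counts covers counting error only. In simulated counts for this comparison (17182 genes tested), 55 of 63 genes changed by a log2 of 1 and 66 of 66 changed by 2 were called in the right direction. Every simulated gene was given the same biological coefficient of variation, 16.6%. Recovery of genes that vary more between mice, such as Egr2, was therefore not measured. Alternatives were DESeq2 1.42.0, limma voom 3.58.1, other scaling (upper-quartile, RLE), other filters (none, or 10 counts or more in each library), other fold thresholds, the replicate number as a block, and leaving out each library.

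Named genes are the 10 regulators, Dok6, called list genes with a mean of at least 1 CPM (at most the 6 largest), genes overlapping a regulator, and the 5 closest profiles, and others are said to be chosen later or serve as markers. Marker sums of neural progenitors were 772 to 974 CPM in controls and 1029 to 1136 CPM in mutants, those of motor neurons 95.2 to 122 and 77.0 to 106, of endothelium 139 to 244 and 245 to 341, and of microglia and macrophages 69.4 to 102 and 103 to 140. Gene length is the deposited length. Positions and exons are from GENCODE M21.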

Additional observations from a re-analysis of the deposited data

How the results depend on the processing

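Egr2 was the regulator called under RLE and upper-quartile scaling as in the reported fit, also above a log2 fold change of 1 or 2. The number of regulators called higher was 3 with DESeq2 (Egr2, Nab2 and Yap1), 0 with limma voom, 4 with no filter on low counts (with Zeb2), 0 with at least 10 counts in every library, where Egr2 was not tested, and 0 to 4 with 1 library left out. No alternative called a regulator lower. Sox10 had a log2 fold change of -0.014 without mutant 2, and Sox2 of -0.0031 without control 2 and -0.070 without mutant 1, and with 1 library left out they ranged up to 0.85 for Sox10 and 0.28 for Sox2, and the cause was not tested. With limma voom, 1 other regulator of immaturity and 1 target gene were called, and with no filter 8 target genes were. Among relatives, 2 were called with DESeq2 and with at least 10 counts in every library. With 1 library left out, calls ranged from 1 to 2 for other regulators of immaturity, from 0 to 5 for other regulators promoting myelination, from 0 to 5 for the Hippo pathway, from 0 to 7 for target genes and from 0 to 2 for relatives. Low counts limit Egr2 in controls (7 to 21 counts).

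With the replicate number as a block, 0 regulators were called higher (Egr2 log2 fold change 2.66, adjusted p = 0.0715), and calls were 1 for other regulators of immaturity, 1 for those promoting myelination, 2 for the Hippo pathway, 2 for target genes and 0 for relatives. Same-numbered mice did not deviate together (correlations of -0.011, -0.22 and -0.29 across genes), so the numbers were not taken as a pairing. No control correlated best with the mutant of its own number.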
